A study of Mus musculus with 8 samples.

Results

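The genes described here are the mouse genes of cholesterol synthesis and sterol regulation: the enzymes of the mevalonate and sterol steps, the regulators of the SREBP transcription factors, and genes of sterol storage, transport and export. Members were taken by name from a list of 28 genes and kept where 2 or more of the 8 libraries reached a value of 10. Of these, 27 genes were found and all 27 passed, among 16623 loci past the same filter. Mvd was not analysed here. RNA-seq was done on embryoid bodies, aggregates in which embryonic stem cells differentiate into derivatives of all germ layers, on day 9 of culture in medium with fetal bovine serum. All samples carry a C57BL/6 background and fall into 4 groups of 2 libraries: embryoid bodies of genotype PRDM16 KO (the Prdm16 knockout), the WT set titled beside them (the Prdm16 control), those of genotype PR domain KO, titled EXON4KO (the PR domain knockout), and the WT set titled EXON4wt (the PR domain control). Prdm16 encodes a zinc finger transcription factor with a PR domain near its N terminus. The labels do not give the clones behind each group, nor which exons the PRDM16 KO genotype lacks, so knockout and clone cannot be told apart.

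Cholesterol is built from acetyl-CoA through mevalonate, isoprenoid diphosphates, squalene and lanosterol. Its genes are driven mainly by SREBP2, the product of Srebf2. When membrane sterol is low, SCAP carries the SREBP precursors from the endoplasmic reticulum to the Golgi apparatus for cleavage, and when sterol is high, INSIG1 and INSIG2 hold SCAP back. Liver X receptors, among them the product of Nr1h3, are activated by oxysterols and drive export genes such as Abca1 and Abcg1. In the embryo, the visceral endoderm of the yolk sac handles much of the lipid supply, and sterols are needed for membranes and for Hedgehog signalling.

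Levels are given as normalised fragments, the fragments of a locus divided by 1 size factor per library. Each library held between 6273789 and 9086885 fragments on loci with a gene name. A gene is said to rise or fall, or to pass, where its limma p adjusted over all tested loci was below 0.05, and fold changes are given on the log2(value + 1) scale with their SE (±). Prdm16 itself had 11.2 and 1.10 normalised fragments in the Prdm16 knockout, against 24.4 and 26.3 in its control, and 23.3 and 15.7 in the PR domain knockout, against 44.6 and 22.7 in its control. It was lower in the Prdm16 knockout (log2 fold change -2.38 ± 0.50, limma adjusted p = 0.000306) and did not pass in the PR domain knockout (-0.71 ± 0.50, adjusted p = 0.377). The libraries held transcripts of many cell types, and none of the defining markers searched was at 0 in every library. The labels do not say whether the 2 libraries of a group came from separate cultures, so p-values reflect the spread of these libraries alone, and that spread may be technical.

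Promoters of the members are shown as background, and a link to the changes below was not tested. RefSeq promoters (GRCm38.p6) were matched for 22 of 27 members (31 promoters), and the 250 bases before each start were searched on both strands. Motifs searched were CCAAT, bound by NF-Y, a factor that acts beside SREBP at many sterol genes, and the sterol regulatory element as TCACNCCAC and in the shorter form CANNCCAC, which every match of the longer form also contains. CCAAT was present in 19 of 31 member promoters (61.3%), against 33.85% of all 32851 promoters in the table. By gene, 18 of the 22 members had a CCAAT match, among them Mvk and Insig2, which passed in neither knockout. The short element was present in 6 member promoters (19.4%), against 15.6% of all promoters, and the longer element in 1 member promoter, that of Hmgcs1, against 1.05% of all promoters. A match describes these letters and not binding. The stretches below end before the first annotated exon base and are written along the gene's strand, with matches to any of these motifs in capitals (ATTGG is CCAAT on the other strand). They show an early enzyme, a middle enzyme, the enzyme with the largest change, and an export gene, which has no match in its stretch.
Hmgcs1 (chr13:119690191-119690350, plus strand): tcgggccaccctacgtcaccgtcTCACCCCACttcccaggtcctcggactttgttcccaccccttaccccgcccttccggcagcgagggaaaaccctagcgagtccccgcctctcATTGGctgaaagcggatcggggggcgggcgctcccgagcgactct
Lss (chr10:76531428-76531587, plus strand): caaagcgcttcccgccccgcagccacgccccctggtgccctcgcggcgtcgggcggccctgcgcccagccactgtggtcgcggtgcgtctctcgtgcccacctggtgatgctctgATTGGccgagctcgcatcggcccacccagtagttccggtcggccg
Hsd17b7 (chr1:169969242-169969401, minus strand): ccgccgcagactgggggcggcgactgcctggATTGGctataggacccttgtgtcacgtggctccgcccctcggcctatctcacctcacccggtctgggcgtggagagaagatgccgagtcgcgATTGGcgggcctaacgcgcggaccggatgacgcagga
Abca1 (chr4:53159896-53160055, minus strand): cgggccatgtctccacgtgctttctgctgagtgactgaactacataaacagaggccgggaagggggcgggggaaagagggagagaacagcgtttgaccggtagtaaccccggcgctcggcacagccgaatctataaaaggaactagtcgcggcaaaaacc

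Levels per transcript length, as the authors' FPKM, spanned a wide range among the members. Msmo1, a methylsterol oxidase, and Hmgcs1, which makes HMG-CoA, had median FPKM of 94.3 and 92.5 over the 8 libraries, with ranges of 70.4 to 131 and 77.0 to 125 that overlap. The Tm7sf2 locus (89.1 FPKM) and Soat1 (80.5 FPKM) came next by median, then Srebf2 and Cyp51, the lanosterol demethylase, with medians of 67.9 and 58.5 FPKM, and their ranges of 48.5 to 90.1 and 47.1 to 88.7 overlap too. At the low end stood Idi1, the isopentenyl diphosphate isomerase (0.798 FPKM), Abcg1 (1.04), Nr1h3 (2.05) and Abca1 (5.43), all as medians. Those first 3 low genes rest on 7 to 45 fragments a library, so small changes in them were not detectable at this depth. Some member loci also carry other gene names: Gm43738 and Rusc1 for Fdps, and Gm28374, Vps51 and Zfpl1 for Tm7sf2. Further shared names were Mir6922 for Srebf1, AC105358.1 for Srebf2 and Gm13783 for Nr1h3. The values of these loci belong to no gene alone.

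In the Prdm16 knockout, the enzymes of cholesterol synthesis were modestly and broadly higher. Of 17 tested enzymes, 11 rose and 0 fell, and 16 had a positive fold change. At an unadjusted p below 0.05, 12 rose and 0 fell, edgeR also called 12 rises and 0 falls, and on log2(FPKM + 1) 5 rose and 0 fell. Their median log2 fold change was 0.32, against -0.03 over all tested loci. Over all tested loci, 18.0% rose and 21.1% fell. The knockout libraries lay above both control libraries in 14 of 17 enzymes, against 31.3% of all tested loci, and below both in 1 (the Tm7sf2 locus), against 36.5% of all tested loci.

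**Figure D1:**
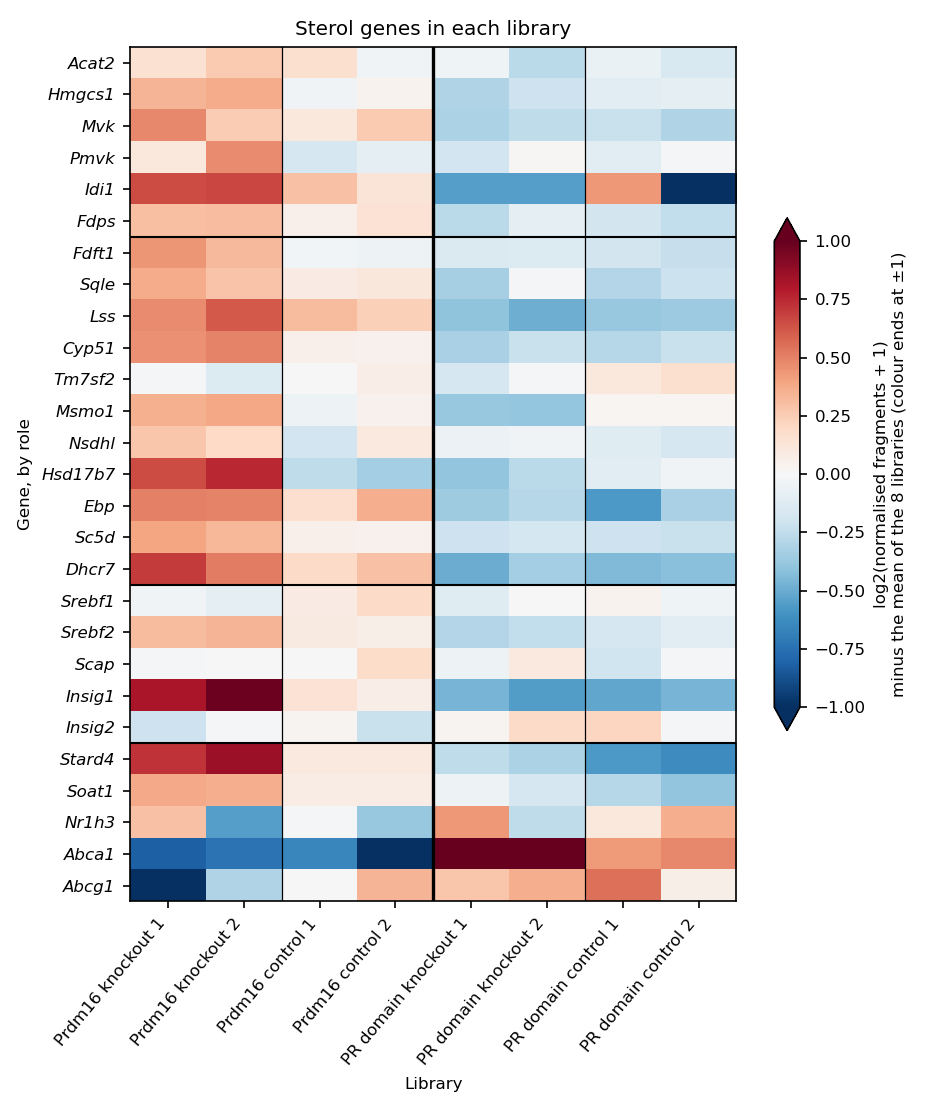
Each row is a gene and each column a library; colour gives log2(normalised fragments + 1) minus the gene's mean over the 8 libraries, and values beyond 1 take the end colour. Most of the 17 enzymes, from Acat2 down to Dhcr7, are highest in the 2 Prdm16 knockout libraries, and Abca1 is highest in the 2 PR domain knockout libraries.

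Among the mevalonate steps, 2 of 6 tested enzymes rose and 0 fell, against 18.0% and 21.1% of all tested loci. Their median log2 fold change was 0.28. Hmgcs1 (ENSMUSG00000093930.2, chromosome 13, 119690379 to 119708260, plus strand) had 3294 and 3370 normalised fragments in the Prdm16 knockout, against 2532 and 2666 in the Prdm16 control. Both knockout libraries were above both control libraries, and it rose by 0.36 ± 0.04 on the log2 scale (limma adjusted p = 1.16e-07). Pmvk, the phosphomevalonate kinase, had 304 and 393 in the knockout, against 251 and 264 in the control. Its knockout libraries were far apart, and the rise of 0.42 ± 0.11 on the log2 scale (adjusted p = 0.00209) did not pass without Prdm16 knockout replicate 2 (0.24, adjusted p = 0.129). The other 4 did not pass: the thiolase gene Acat2 (log2 fold change 0.14 ± 0.09), the mevalonate kinase gene Mvk (0.18 ± 0.11), Idi1 (0.45 ± 0.40) and the Fdps locus, the farnesyl diphosphate synthase (0.20 ± 0.09, adjusted p = 0.0678).

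Among the sterol steps, 9 of 11 enzymes rose and 0 fell, against 18.0% and 21.1% of all tested loci. Their median log2 fold change was 0.32. Squalene synthase, Fdft1, had 608 and 560 normalised fragments in the Prdm16 knockout, against 438 and 433 in the control. The demethylase gene Cyp51 had 1694 and 1734 in the knockout, against 1272 and 1267 in the control. In both genes the spread within a group was small beside the gap, and they rose by 0.42 ± 0.08 and 0.43 ± 0.05 on the log2 scale (adjusted p = 4.11e-05 and 1.15e-07). Msmo1 had 1284 and 1309 normalised fragments in the knockout, against 966 and 1036 in the control, a rise of 0.37 ± 0.06 on the log2 scale (adjusted p = 3.14e-06). Dhcr7, which carries out a last reduction to cholesterol, had 669 and 584 in the knockout, against 470 and 504 in the control, a rise of 0.36 ± 0.08 on the log2 scale. The sterol desaturase gene Sc5d had 591 and 566 in the knockout, against 463 and 462 in the control, a rise of 0.32 ± 0.07.

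Hsd17b7, the ketosteroid reductase of the demethylation steps (ENSMUSG00000026675.12, chromosome 1, 169949535 to 169969241, minus strand), stood above the other enzymes. Its level was 588 and 629 normalised fragments in the Prdm16 knockout, against 313 and 294 in the Prdm16 control, so the knockout held 2.00 times the control on the fitted scale (log2 fold change 1.00 ± 0.08, limma adjusted p = 4.65e-11). The sterol enzymes Lss, Sqle and Nsdhl rose by less. Lanosterol synthase, Lss, had 801 and 885 in the knockout, against 718 and 681 in the control (0.27 ± 0.07 on the log2 scale). Squalene epoxidase, Sqle, had 998 and 942 in the knockout, against 821 and 836 in the control (0.23 ± 0.07), and the sterol dehydrogenase gene Nsdhl had 371 and 351, against 267 and 327 (0.29 ± 0.10). Their knockout libraries lay above both controls in each case, yet each call rested on few libraries. Lss did not pass without Prdm16 knockout replicate 2 (adjusted p = 0.0797), Nsdhl without Prdm16 control replicate 1 (log2 fold change 0.14) or knockout replicate 1, and Sqle without either control or without knockout replicate 1 (lowest log2 fold change 0.19). The sterol isomerase gene Ebp (log2 fold change 0.23 ± 0.13) and the Tm7sf2 locus, which names a sterol reductase (-0.11 ± 0.06), did not pass.

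**Figure D2:**
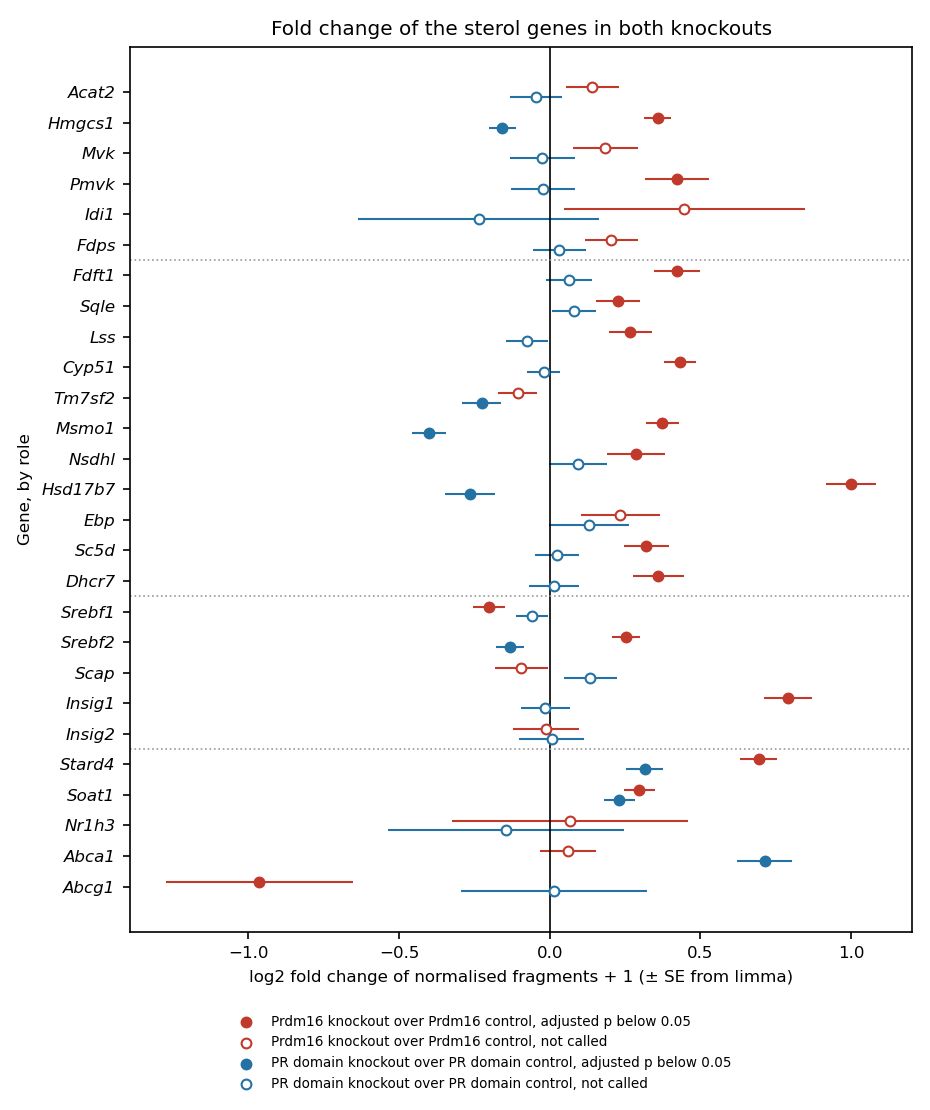
Points give the log2 fold change of each gene in the Prdm16 knockout over its control (red) and in the PR domain knockout over its control (blue), with bars of ± SE from limma; filled points passed an adjusted p of 0.05. Filled red points lie to the right for 11 of 17 enzymes, with Hsd17b7 at 1.00, while the blue points of most enzymes lie near 0.

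Of the 5 SREBP regulators, 2 rose and 1 fell in the Prdm16 knockout, against 18.0% and 21.1% of all tested loci. Their median log2 fold change was -0.01, against -0.03 over all tested loci. Insig1 (ENSMUSG00000045294.11, chromosome 5, 28071363 to 28078662, plus strand), itself known as an SREBP target, had 723 and 809 normalised fragments in the knockout, against 454 and 430 in the control. The groups did not overlap, and it rose by 0.79 ± 0.08 on the log2 scale (limma adjusted p = 3.48e-09). Its paralogue Insig2 had 225 and 255 in the knockout, against 264 and 221 in the control, with overlapping groups and a log2 fold change of -0.01 (95% interval -0.23 to 0.21). Srebf2 had 2560 and 2602 in the knockout, against 2184 and 2145 in the control, a rise of 0.25 ± 0.05 on the log2 scale (adjusted p = 3.84e-05). Srebf1, whose protein acts more on fatty acid genes, went the other way, with 1462 and 1403 in the knockout, against 1586 and 1710 in the control. It fell by 0.20 on the log2 scale (SE 0.05, adjusted p = 0.00331), did not pass without Prdm16 control replicate 2 (-0.15, adjusted p = 0.0878), and stood at 0.08 on the FPKM scale. Scap had 373 and 377 in the knockout, against 376 and 427 in the control, and did not pass (log2 fold change -0.09 ± 0.09). On the FPKM scale Scap had 38.6 and 28.5 in the knockout, against 17.4 and 14.3 in the control, and passed the other way (1.03, adjusted p = 0.0115).

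Of the 5 genes of storage, transport and export, 2 rose and 1 fell in the Prdm16 knockout, against 18.0% and 21.1% of all tested loci. Stard4, a soluble sterol carrier, had 1411 and 1545 normalised fragments in the knockout, against 913 and 911 in the control. Both knockout libraries were well above the controls, and it rose by 0.69 ± 0.06 on the log2 scale (limma adjusted p = 1.53e-10). Soat1, which esterifies cholesterol for storage, had 2014 and 1995 in the knockout, against 1629 and 1634 in the control, a rise of 0.30 ± 0.05. A second locus under the name Soat1 had a log2 fold change of 0.38 ± 0.06 and also rose, and how reads were split between both loci is not known. The exporter gene Abca1 had 256 and 270 in the knockout, against 287 and 220 in the control, and the groups overlapped. It did not pass (log2 fold change 0.06, 95% interval -0.13 to 0.25), though without Prdm16 control replicate 1 it was 0.25 and passed (adjusted p = 0.0443). Abcg1, which moves sterol to high-density lipoprotein, had 9 and 21 fragments in the knockout, against 27 and 39 in the control. It fell by 0.96 on the log2 scale (SE 0.31, adjusted p = 0.0136), a value of -0.47 without Prdm16 knockout replicate 1 (adjusted p = 0.288) and of -0.79 without Prdm16 control replicate 2 (adjusted p = 0.130). Its second locus was at -0.17 ± 0.40 and did not pass, and neither did Nr1h3 (0.07 ± 0.39).

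**Figure D3:**
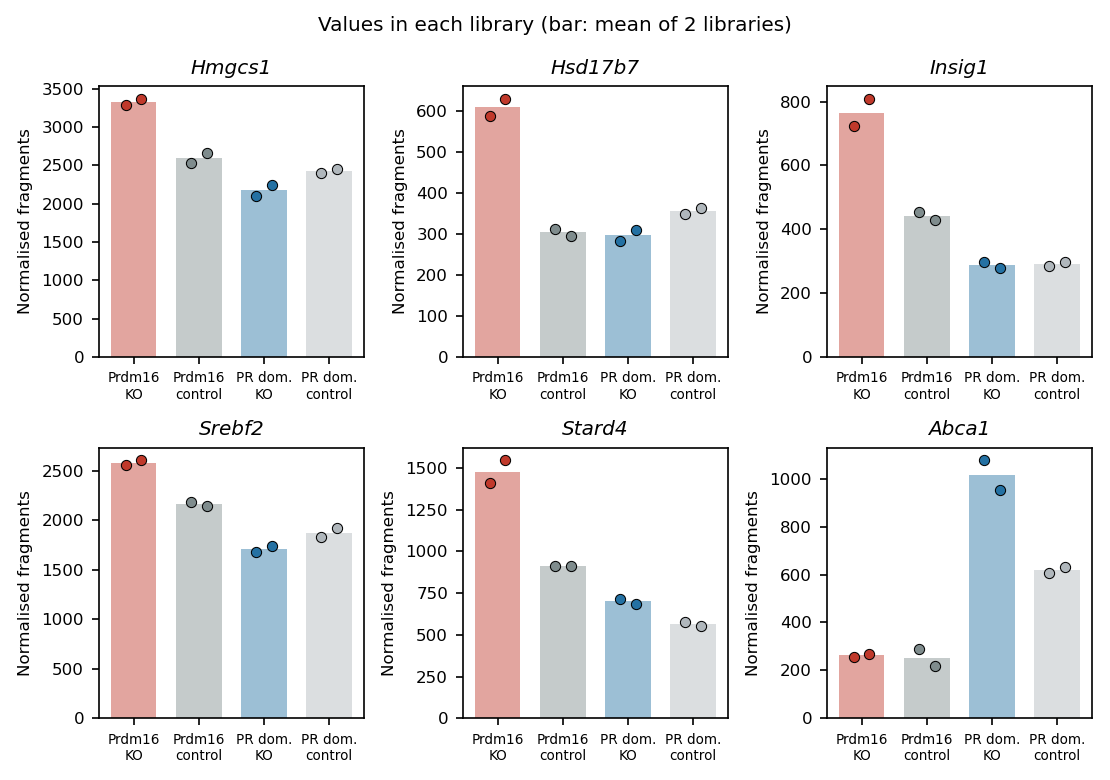
Dots give the normalised fragments of each library and bars the mean of 2 libraries for 6 genes (KO, knockout; PR dom., PR domain), on axes that start at 0. Hmgcs1, Hsd17b7, Insig1, Srebf2 and Stard4 are highest in the Prdm16 knockout, and Abca1 is highest in the PR domain knockout at 1077 and 955.

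The synthesis enzymes had fold changes centred near 0 in the PR domain knockout, where the export gene Abca1, the carrier Stard4 and the storage gene Soat1 rose. Of 17 enzymes, 0 rose and 4 fell, with a median log2 fold change of -0.02, against -0.03 over all tested loci. At an unadjusted p below 0.05, 0 rose and 4 fell, and edgeR called 0 rises and 4 falls. Among all tested loci 8.48% rose and 10.7% fell; rises made up 44.2% of these calls, and 54.4% with DESeq2 median-ratio scaling. Both knockout libraries lay above both controls in 3 of 17 enzymes, against 24.7% of all tested loci, and below both in 5, against 31.9%. Msmo1 had 771 and 767 normalised fragments in the PR domain knockout, against 1014 and 1016 in its control, and its log2 value fell by 0.40 (SE 0.06, limma adjusted p = 2.42e-06). The other 3 falls were small: Hsd17b7 by 0.26, the Tm7sf2 locus by 0.23 and Hmgcs1 by 0.16 on the log2 scale. When PR domain knockout replicate 1 was left out, or PR domain control replicate 2, Msmo1 was the only one of these 4 that passed, as it was by DESeq2 and without a filter. On log2(FPKM + 1) 0 members passed in the PR domain knockout. Without PR domain knockout replicate 1, Sqle rose by 0.24 on the log2 scale.

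Insig1 had 297 and 279 normalised fragments in the PR domain knockout, against 285 and 296 in its control. The groups overlapped, and its log2 fold change was -0.01 (95% interval -0.18 to 0.15). Srebf2 had 1681 and 1734 in the knockout, against 1827 and 1916 in the control, and its log2 value fell by 0.13 (SE 0.05, adjusted p = 0.0379). That fall did not pass without either PR domain control library or without PR domain knockout replicate 1, nor with any other scaling tried. Srebf1, Scap and Insig2 did not pass (log2 fold changes of -0.06, 0.13 and 0.01).

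Abca1 (ENSMUSG00000015243.4, chromosome 4, 53030787 to 53159895, minus strand) had 1077 and 955 normalised fragments in the PR domain knockout, against 606 and 630 in the PR domain control. The groups were well apart, and it rose by 0.71 ± 0.09 on the log2 scale (limma adjusted p = 6.46e-07). Stard4 had 717 and 686 in the knockout, against 574 and 552 in the control, a rise of 0.32 ± 0.06 on the log2 scale. Soat1 had 1494 and 1380 in the knockout, against 1268 and 1180 in the control, a rise of 0.23 ± 0.05 that did not pass without PR domain control replicate 2 (0.18, adjusted p = 0.0635). Its second locus (0.12 ± 0.06), Abcg1 (0.01 ± 0.31, second locus 0.22 ± 0.40) and Nr1h3 (-0.15 ± 0.39) did not pass.

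**Figure D4:**
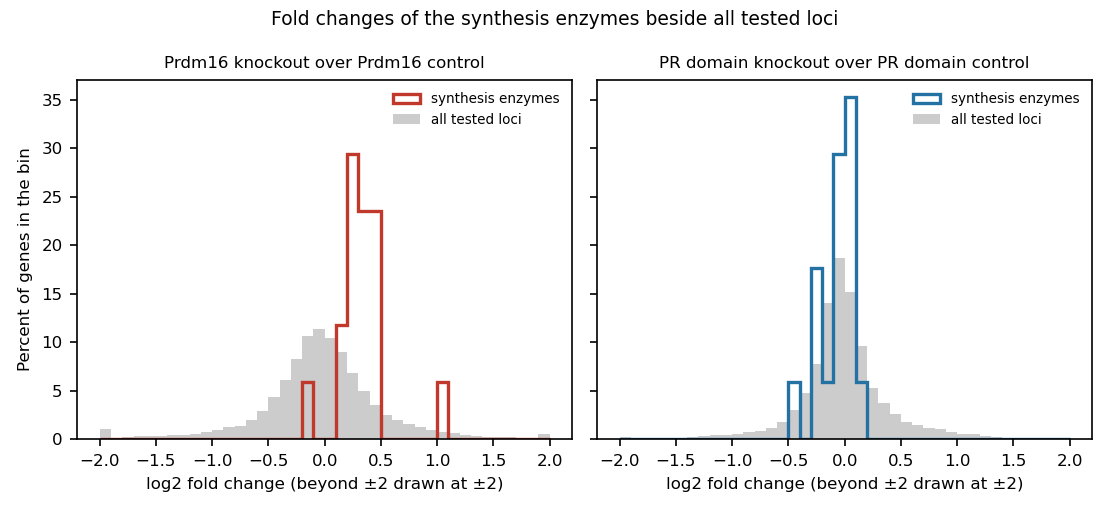
Grey bars give the percent of the 16623 tested loci in each bin of log2 fold change and the outline the percent of the 17 synthesis enzymes, for the Prdm16 knockout (left) and the PR domain knockout (right). The enzymes sit to the right of the bulk on the left, with a median of 0.32, and over the bulk on the right, with a median of -0.02.

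The fold changes of both knockouts were set against each other as a difference, PR domain minus Prdm16, in the same fit. Of 17 enzymes, 8 had a lower fold change in the PR domain knockout and 0 a higher one (by edgeR 9 and 0, at an unadjusted p below 0.05 also 9 and 0), with a median difference of -0.34 on the log2 scale, against 0.00 over all tested loci. Over all tested loci, 7.81% had a higher and 8.60% a lower fold change in the PR domain knockout, so 47.6% of calls were higher, or 63.0% when scaled to total fragments. Of the 8 enzymes, 5 passed with total-fragment scaling or without a filter, 4 by DESeq2 and 1 on log2(FPKM + 1). The difference was -1.27 ± 0.12 for Hsd17b7, -0.77 ± 0.08 for Msmo1 and -0.52 ± 0.06 for Hmgcs1 on the log2 scale (limma adjusted p = 2.42e-09, 1.77e-08 and 4.07e-07). Cyp51, Pmvk, Fdft1, Lss and Dhcr7 made up the remaining 5, at -0.45 to -0.34. Of these, only Cyp51 passed whichever library was left out. Pmvk did not pass when either Prdm16 control, Prdm16 knockout replicate 2, either PR domain control or PR domain knockout replicate 1 was left out. Dhcr7 did not pass when either Prdm16 control, Prdm16 knockout replicate 1, either PR domain control or PR domain knockout replicate 1 was left out. Fdft1 did not pass without Prdm16 control replicate 2, Prdm16 knockout replicate 1, PR domain control replicate 1 or PR domain knockout replicate 1, and Lss without replicate 2 of any of the 4 groups. Among regulators and transport genes, Insig1 (-0.80 ± 0.11), Srebf2 (-0.39 ± 0.06) and Stard4 (-0.38 ± 0.09) had a lower fold change in the PR domain knockout, and Abca1 a higher one (0.65 ± 0.13). For the Soat1 locus that rose in both knockouts, the difference did not pass (-0.07 ± 0.07, 95% interval -0.22 to 0.08). For the second Soat1 locus it was -0.26 ± 0.09 (adjusted p = 0.0417), a call that held without Prdm16 control replicate 1 and did not pass when any of the other 7 libraries was left out.

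The WT sets themselves differed on these genes. Between the WT sets, PR domain control over Prdm16 control, 8 of 17 enzymes were lower and 1 was higher, with a median log2 fold change of -0.26, against 0.00 over all tested loci, where 16.3% were higher and 16.7% lower. Dhcr7 was at 301 and 307 normalised fragments in the PR domain control, against 470 and 504 in the Prdm16 control (log2 fold change -0.68 ± 0.08), and Lss and Ebp were lower by 0.65 and 0.71 on the log2 scale. Insig1 (-0.60 ± 0.08) and Stard4 (-0.70 ± 0.06) were lower as well, while Abca1 was higher by 1.29 ± 0.09 on the log2 scale (adjusted p = 1.14e-12). Hsd17b7 was the enzyme that was higher, at 348 and 364 in the PR domain control, against 313 and 294 in the Prdm16 control. That call did not pass when any of the 4 control libraries was left out (0.19 to 0.27), and the value was -0.02 on the FPKM scale. These control libraries are also those of the knockout comparisons, so the comparisons are not independent.

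Genes of neighbouring pathways gave a mixed picture. In the Prdm16 knockout 18.0% of all tested loci rose and 21.1% fell, and in the PR domain knockout 8.48% and 10.7%. Of 12 tested liver X receptor partners and targets, 7 rose and 1 fell in the Prdm16 knockout (median log2 fold change 0.37). For the PR domain knockout, 5 rose and 0 fell (median 0.34). Mylip, a ubiquitin ligase that lowers lipoprotein receptors, rose by 0.80 ± 0.10 in the Prdm16 knockout and by 0.70 ± 0.10 in the PR domain one on the log2 scale. The lipase gene Lpl rose by 0.66 ± 0.05 in the Prdm16 knockout and by 0.38 ± 0.05 in the PR domain one. Lpcat3, a phospholipid remodelling enzyme, was at 0.53 ± 0.07 in the Prdm16 knockout, and Abca7, a lipid transporter, at 0.44 ± 0.09 in the PR domain knockout. Of 16 genes of lipoprotein uptake and sterol transport, 6 rose and 2 fell in the Prdm16 knockout (median 0.17), while the PR domain knockout had 7 rises and 1 fall (median 0.17). The high-density lipoprotein receptor gene Scarb1 rose by 0.67 ± 0.06 in the Prdm16 knockout and by 0.33 ± 0.06 in the PR domain one on the log2 scale. Npc2, a lysosomal sterol carrier, rose by 0.43 ± 0.05 in the Prdm16 knockout and by 0.28 ± 0.05 in the PR domain one. Gramd1b, which moves cholesterol out of the plasma membrane, rose by 0.45 ± 0.08 in the PR domain knockout (229 and 240 normalised fragments, against 185 and 159). It was also higher in the Prdm16 knockout, at 1301 and 1444, against 1058 and 1056 in its control. Lipa, the lysosomal lipase, rose in the Prdm16 knockout (0.67 ± 0.05). In the PR domain knockout Lipa had 1135 and 1084 normalised fragments, against 1029 and 973 in its control.

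Of 14 fatty acid synthesis genes, 4 rose and 3 fell in the Prdm16 knockout (median log2 fold change 0.09), against 18.0% and 21.1% of all tested loci. In the PR domain knockout 1 rose and 4 fell (median -0.18), against 8.48% and 10.7% of all tested loci. Between the WT sets, 8 were lower and 1 was higher in the PR domain control (median -0.32), against 16.7% and 16.3% of all tested loci. The log2 value of Fasn, the fatty acid synthase, fell by 0.30 in the Prdm16 knockout, and by 0.18 in the PR domain one, and that of the desaturase gene Fads2 fell by 0.43 in the Prdm16 knockout. The locus of the desaturase gene Scd2, which also carries Scd3, rose by 0.18 ± 0.03 on the log2 scale in the Prdm16 knockout, while in the PR domain knockout its log2 value fell by 0.19. Me1, which supplies NADPH, rose by 0.41 ± 0.10 in the PR domain knockout.

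Markers of several cell types moved with the groups, and in bulk samples fewer cells of a type and less RNA per cell cannot be told apart. As a background to the counts, 18.0% of all tested loci rose and 21.1% fell in the Prdm16 knockout. For the PR domain knockout these shares were 8.48% and 10.7%, and 16.3% were higher and 16.7% lower between the WT sets. Among markers of visceral and definitive endoderm, whose cells secrete lipoproteins, 12 of 18 rose and 0 fell in the Prdm16 knockout. Their summed level was 87161 and 88106 normalised fragments in the Prdm16 knockout, against 40517 and 42176 in its control. Of the same markers, 17 of 18 rose and 1 fell in the PR domain knockout, with sums of 11633 and 11606, against 6496.5 and 6744.6 in its control. In the PR domain control 17 of 18 were lower than in the Prdm16 control and 0 were higher (median log2 fold change -2.36). The mean level of the 17 enzymes, on the log2 scale and relative to each gene's mean over the libraries, was 0.391 and 0.387 in the Prdm16 knockout, against 0.042 and 0.080 in its control, and -0.291 and -0.220 in the PR domain knockout, against -0.161 and -0.229 in its control. The endoderm sum and the enzyme level were both highest in the Prdm16 knockout and next highest in its control. In the PR domain knockout the endoderm sum was above that of its control, while the enzyme levels of these groups overlapped. Among markers of macrophages, which also express Abca1, 10 of 11 rose and 0 fell in the Prdm16 knockout, with sums of 4365 and 4532, against 2007 and 2097 in its control. In the PR domain knockout 11 of 11 rose, with sums of 11742 and 11686, against 6206.5 and 6083 in its control. Among erythroid markers, 6 of 11 rose and 1 fell in the Prdm16 knockout (sums of 10906 and 10851, against 7879 and 7715 in its control), and the PR domain knockout had 9 rises and 0 falls (21242 and 20945, against 11116 and 10532 in its control). Of 11 fibroblast and mesenchymal markers, 5 rose and 3 fell in the Prdm16 knockout (110690 and 108340, against 79158 and 79147 in its control). Their median log2 fold change there was 0.04, so the higher sum does not describe the list as a whole. The PR domain knockout had 7 rises and 2 falls among them (143650 and 144290, against 109750 and 108620 in its control). The macrophage, erythroid and fibroblast sums, like Abca1, were highest in the PR domain knockout. In the Prdm16 knockout these sums were also above those of its control, while Abca1 did not pass there (log2 fold change 0.06).

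Of 13 cardiomyocyte markers, 9 fell and 1 rose in the Prdm16 knockout (sums of 7949 and 7926, against 9321.5 and 9615 in its control). The PR domain knockout had 12 falls and 1 rise (10586 and 10595, against 20082 and 20056 in its control). Of 11 endothelial markers, 2 rose and 7 fell in the Prdm16 knockout (sums of 5334 and 5471.5, against 5975 and 5927 in its control), and 11 fell in the PR domain knockout (5767 and 5727, against 8059 and 8275 in its control). Of 5 tested pluripotency markers, 4 fell in the Prdm16 knockout (sums over all 9 listed of 2595.5 and 2544, against 3191 and 3087 in its control), while 1 rose and 2 fell in the PR domain knockout (714 and 695, against 890.4 and 883 in its control). Proliferation genes, with sums of 17253 and 17966 in the Prdm16 knockout against 18910 and 19181 in its control, had 1 rise and 3 falls among 10. The shares over all tested loci there were 18.0% and 21.1%. In the PR domain knockout 4 of 10 proliferation genes fell and 0 rose, against 10.7% and 8.48% of all tested loci. Neural progenitor markers fell in 10 of 11 tested cases in the Prdm16 knockout (sums of 1117 and 1134, against 2099 and 2012 in its control) and in 4 of 11 in the PR domain knockout (1505 and 1511, against 2192 and 2096). The part of these shifts in the results on sterol genes was not tested.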

How the data were processed

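The deposited files hold RNA-seq of 8 mouse embryoid body libraries. Per the submitters' processing notes, the tools were Cufflinks 2.2.1, TopHat2 2.1.1, deepTools and SAMtools 1.5, on the mm10 build (GRCm38), with no role given for each. No source used here gives the annotation release or strand setting, so overlapping and antisense genes cannot be separated. The signal values deposited by the authors, under headers that read count, are fragments per locus after division by a library-wide size factor, as the values show. They were whole multiples of 1 step in 99.99 to 100.0% of values above 0, within a tolerance of 0.1. FPKM values deposited by the authors scale fragments by transcript length and depth, and served for levels between genes and as an alternative. Loci without a name held 1.88 to 2.53% of fragments and were left out.

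Loci that reached a value of 10 in 2 or more libraries were tested with limma 3.58.1 (limma-trend, R 4.3.3) on log2(value + 1), a scale that understates changes of low genes. The fit took 4 group means over all 8 libraries, with 4 residual and 25.4 prior degrees of freedom. Adjusted p is Benjamini-Hochberg over 16623 loci, and below 0.05 counts as a call. The design foresaw edgeR only for raw counts. With edgeR 4.0.16 on recovered fragments, 6470 loci (Prdm16 knockout) and 3418 loci (PR domain knockout) passed; DESeq2 1.42.0 was a further alternative. Scripts were tested on simulated data. A gene with several loci counts at the locus with the highest mean. Every member is named, with up to 3 called genes of the smallest adjusted p per neighbouring list and knockout, except a gene that is not reported here. The members and lists were chosen with earlier results of these data known. Within groups, replicates differed beyond sampling noise (chi-square over degrees of freedom 1.38 to 2.15). Same-numbered replicates did not deviate together. Gene coordinates are from GENCODE M21.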

Additional observations from a re-analysis of the deposited data

Results flagged for a closer look

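The test of the difference itself separated the fold changes of the knockouts in 12 member genes (PR domain minus Prdm16, log2 scale, limma, p adjusted over all loci). Of these, 11 were lower and 1 was higher, against 8.60% and 7.81% of all tested loci. Among enzymes the difference was -0.52 for Hmgcs1, -0.44 for Pmvk (adjusted p = 0.0413), -0.36 for Fdft1 (adjusted p = 0.0193), -0.34 for Lss (adjusted p = 0.0165) and -0.45 for Cyp51. It was -0.77 for Msmo1, -1.27 for Hsd17b7 and -0.35 for Dhcr7 (adjusted p = 0.0440). In Msmo1, Hsd17b7 and Hmgcs1 the gene rose in the Prdm16 knockout and fell in the PR domain knockout. The falls of Hsd17b7 and Hmgcs1 did not pass by DESeq2, with DESeq2 median-ratio scaling or without a filter. On log2(FPKM + 1) the fall of Msmo1 did not pass either. Among the regulators and transport genes, the difference was -0.39 for Srebf2, -0.80 for Insig1, -0.38 for Stard4 (adjusted p = 0.00236) and 0.65 for Abca1 (adjusted p = 0.000604). Stard4 rose in both knockouts, by more in the Prdm16 knockout. Groups of 2 libraries are too small to look for a library that stands apart.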

How the results depend on the processing

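In the Prdm16 knockout, 17 members were called, 15 higher and 2 lower, against 18.0% and 21.1% of all tested loci. For the PR domain knockout 3 members were called higher and 5 lower, against 8.48% and 10.7%. In the Prdm16 knockout, 16 of 17 enzymes had a positive fold change in each setting that tested all of them. In the PR domain knockout 5 to 10 of 17 enzymes were positive, and their median log2 fold change ran -0.083 (FPKM) to 0.030 (without PR domain knockout replicate 1), with either sign. Fold changes not called in the report also changed sign in the Prdm16 knockout for Abca1 (-0.13 to 0.25), Insig2 (-0.61 to 0.11) and Nr1h3 (-0.36 to 0.99). With 1 library left out, members called ran 14 to 17 in the Prdm16 knockout, 3 to 8 in the PR domain knockout, 8 to 12 for the difference and 12 to 15 between controls, and loci called ran 5028 to 6477, 2180 to 3367, 1950 to 2390 and 4047 to 5675 in the same order. With the lone library left in a group, its spread was assumed to be that of the other groups. In the PR domain knockout 8 members were called, but 3 when PR domain control replicate 2 was dropped, 5 without PR domain knockout replicate 1, 5 with DESeq2 median-ratio scaling, 4 without the filter and 4 with DESeq2.

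DESeq2 called 3983 loci in the Prdm16 knockout (6502 by limma), 1794 in the PR domain knockout (3190), 1189 for the difference (2728) and 3388 between controls (5481), and without a filter 1642 loci were called for the difference. On log2(FPKM + 1) the loci were 2244, 582, 199 and 1717 in that order, and the members 8, 0, 1 and 4; limma on FPKM gave the PR domain knockout 3 higher and 2 lower members at an unadjusted p below 0.05, and edgeR on fragments 7 calls. FPKM also turned the sign of Srebf1 (0.083) and Scap (1.03, adjusted p = 0.0115) in the Prdm16 knockout and of Mvk (0.052), Hsd17b7 (-0.020) and Srebf1 (0.0015) between controls; the cause was not tested. Same-numbered libraries did not deviate together (correlations of -0.0329 in the Prdm16 set and 0.0311 in the PR domain set, from replicate differences across loci). With the replicate block, 17 members were called in the Prdm16 knockout, 8 in the PR domain knockout, 12 for the difference and 14 between controls. Median shifts of all loci under other scalings stayed within -0.07 to 0.06. Genes under about 50 fragments (Idi1, Nr1h3, Abcg1) are limited by depth.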

Other observations

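Other genes around the pathway, described by their lists, moved in parts. Beside them, 18.0% of all tested loci rose and 21.1% fell in the Prdm16 knockout, and 8.48% and 10.7% in the PR domain knockout. Of 18 genes of SREBP processing and sterol-regulated degradation, 6 rose and 4 fell in the Prdm16 knockout (median log2 fold change 0.04), and the PR domain knockout had 0 rises and 4 falls (median -0.08). All 6 that rose were coat and GTPase genes of the vesicles that leave the endoplasmic reticulum, with Sec24d at 0.47 ± 0.06, Sec23a at 0.33 ± 0.05 and Sar1a at 0.25 ± 0.05. Those vesicles carry many cargoes besides SREBP. Mbtps1, the first SREBP protease, had log2 values that fell by 0.22 in the Prdm16 knockout, and by 0.35 in the PR domain one. The log2 value of Erlin2, a membrane protein of the endoplasmic reticulum, fell by 0.32 in the PR domain knockout. Erlin2 was also lower in the Prdm16 knockout, at 1163 and 1215 normalised fragments, against 1359 and 1323 in its control.

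Of 12 genes of the isoprenoid branches, which leave the pathway before squalene, 0 rose and 1 fell in each knockout, and the median log2 fold change was -0.07 (Prdm16 knockout) and -0.02 (PR domain knockout). The genes that fell were Pdss1, of coenzyme Q synthesis, whose log2 value fell by 0.61 in the Prdm16 knockout, and Fnta, a farnesyltransferase subunit gene, whose log2 value fell by 0.36 in the PR domain knockout. Among oxysterol and bile acid enzymes, 1 of 8 rose and 2 fell in the Prdm16 knockout, against 18.0% and 21.1% of all tested loci. In the PR domain knockout 1 rose and 0 fell, against 8.48% and 10.7%. The fallers were the Hsd3b7 locus (-0.30 ± 0.06), which names a gene of bile acid synthesis, and Cyp39a1 (-0.63 ± 0.18), an oxysterol hydroxylase. The Hsd3b7 locus also carries Gm49388 and Setd1a, so its fall belongs to no gene alone. The riser in both was Soat2, a paralogue of Soat1 known from liver and intestine, at 0.68 ± 0.16 in the Prdm16 knockout and at 1.07 ± 0.16 in the PR domain one on the log2 scale. Its level was 453 and 433 normalised fragments in the Prdm16 knockout, against 296 and 259.6 in its control, and 42.2 and 56.2 in the PR domain knockout, against 26.4 and 19.6 in its control.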
